A study of Mus musculus with 61 samples.

Results

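Trp53, the mouse gene for the transcription factor p53, and 9 genes that p53 is known to activate were followed through the 12 conditions of a reprogramming experiment in mouse pancreatic ductal organoids. The 10 genes were chosen by name, as p53 and a list of its targets, out of 46078 genes in the deposited count table, and all 10 were among the 24004 genes that passed the filter on low values. They are Trp53, its regulator Mdm2, the death genes Bax and Bbc3, the stress genes Trp53inp1, Eda2r and Phlda3, the cyclin gene Ccng1 and the sestrin genes Sesn1 and Sesn2. The organoids, three-dimensional cultures grown from the pancreatic ducts of C57BL/6 mice, were infected with lentiviruses in which doxycycline switches on GFP with Ngn3, LSS-Orange with Pdx1 or Tomato with MafA, and every culture also received the doxycycline-dependent transactivator under the PGK promoter. Cells were sorted by colour after 8 days of doxycycline, 50 cells were pooled for each library, and reads per gene were counted.

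Every group was sorted from infected, doxycycline-treated cultures. WT cultures received wild-type Ngn3, and 6SA cultures received a phospho-mutant Ngn3 in which serines were replaced by alanine. Each kind of culture gave cells carrying Pdx1, MafA or both of these, each sorted either without or together with Ngn3, and cells with all of Ngn3, Pdx1 and MafA are called 3-factor cells. The cells without the Ngn3 reporter therefore grew beside cells with it. Uninfected cells and cells with Ngn3 alone were not analysed here. Each condition had 2 or 3 biological replicates, 17 samples with and 15 without Ngn3 after repeat libraries were summed, with 2579583 to 19461008 counts on genes per sample. Replicates 1 and 2 were at passage 2 and replicate 3 at passage 5. Passage 5 was unevenly spread, with 5 samples with and 3 without Ngn3. WT Pdx1, 6SA Pdx1, WT MafA and the 6SA 3-factor cells had no sample at passage 5. The comparisons of Ngn3, its forms and its partners had no passage term, so passage can enter their differences. The labels do not say that replicates came from different mice, so the p-values measure the spread between these samples, which may be partly technical. Levels are in CPM, counts per 1000000 of the library size after TMM scaling.

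p53 is held at a low level in most healthy cells because Mdm2, a ubiquitin ligase, marks it for degradation. DNA damage and other stress release p53, which then activates genes that stop the cell cycle, repair DNA or start apoptosis, and also activates Mdm2, so the pathway limits itself. Since p53 is controlled mainly as a protein, the level of its mRNA is not a measure of its activity.

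To show where p53 could bind near these genes, the windows from 250 bases before to 50 bases after each annotated start (RefSeq, GRCm38.p6) were searched on both strands for the p53 consensus decamer, the unit that p53 sites hold in pairs. The table had 12 windows for 9 of the 10 genes, all but Trp53inp1. The decamer was in 5 of these windows, those of Mdm2, Bax, Ccng1 and Trp53 and the second of 2 starts of Sesn1, and 8.36% of all 32851 windows held it. None of the 12 windows held a pair of decamers at most 13 bases apart, which 24 of all windows did, 0.0731%. One of the 24 belonged to Cdkn1a, the cell cycle inhibitor gene that is the best known p53 target. The 5 matches and the Cdkn1a pair are printed 5′ to 3′ on the strand of the gene, upstream of its start, with the decamer in capitals.
Mdm2 (chr10:117710915-117710964, minus strand): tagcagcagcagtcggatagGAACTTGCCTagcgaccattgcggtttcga
Bax (chr7:45467070-45467119, minus strand): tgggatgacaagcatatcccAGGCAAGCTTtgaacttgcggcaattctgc
Ccng1 (chr11:40755442-40755491, minus strand): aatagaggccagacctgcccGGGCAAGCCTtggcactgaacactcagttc
Sesn1 (chr10:41887246-41887295, plus strand): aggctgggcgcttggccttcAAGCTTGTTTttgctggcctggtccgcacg
Trp53 (chr11:69580264-69580313, plus strand): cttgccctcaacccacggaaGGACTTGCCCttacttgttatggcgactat
Cdkn1a (chr17:29090886-29090957, plus strand): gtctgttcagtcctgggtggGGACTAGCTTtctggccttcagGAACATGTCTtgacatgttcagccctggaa
In these windows the decamer began 201 bases before the start of Bax, 186 before that of Mdm2, 185 before that of Ccng1, 173 before that of Sesn1 and 75 before that of Trp53. A match is a description of the letters and not a measured site.

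The labels and the tissue were checked with marker genes. Neurog3, the gene for Ngn3, was at 7.87 to 329 CPM in the samples sorted for it and at 0 to 0.788 CPM in the others. Pdx1 overlapped between cells sorted with it, such as 11.2 to 37.7 CPM with Pdx1 alone, and without it, 4.22 to 19.3 CPM with MafA alone. Mafa was at most 0.116 CPM in cells sorted without MafA and ran from 0 to 12.7 CPM in cells sorted with it, so it overlapped as well. The 5 samples of 3-factor cells held 3.46 to 12.7 CPM, and the lowest samples sorted with MafA were 6SA Pdx1+MafA at 0 and WT MafA at 0.107 CPM. The 12 duct markers summed to 18533 to 66196 CPM without Ngn3 and to 2789 to 22888 CPM with it. The 10 endocrine markers summed to at most 8.65 CPM without Ngn3 and to 449 to 13444 CPM with it, and all 12 proliferation genes were lower with Ngn3 (edgeR, adjusted p under the threshold of 0.05). The sample WT Ngn3+MafA replicate 1 stood apart, with 296 CPM of 8 mesenchyme markers where the highest sum elsewhere was 19.2 CPM, and leaving it out changed none of the counts of called members below. Acinar, immune and endothelial markers summed to at most 49.7, 43.7 and 27.0 CPM in a sample, and 4 of the 10 acinar markers were at 0 in all samples with Ngn3 and 4 in all samples without it. The part of the falling duct markers and rising endocrine markers in the values of the p53 genes was not tested, and in pools of cells a lower level can mean fewer cells with the transcript or less of it per cell, which cannot be told apart.

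Between genes, levels are comparable only per kilobase of exons. On that scale the highest medians over the 32 samples belonged to Bax with 164, Ccng1 with 156 and Phlda3 with 143 CPM per kilobase. Trp53 followed with 63.5, Trp53inp1 with 60.8 and Mdm2 with 49.0 CPM per kilobase. Sesn2 had a median of 24.1, Eda2r 16.7, Bbc3 4.73 and Sesn1 2.65 CPM per kilobase. The ranges of each gene and the next in this order overlapped. Of the exons of Bax, 12.2% are shared with a predicted gene on the same strand, and the other 9 genes share none with another gene, so reads on Bax are the less certain ones.

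**Figure D1:**
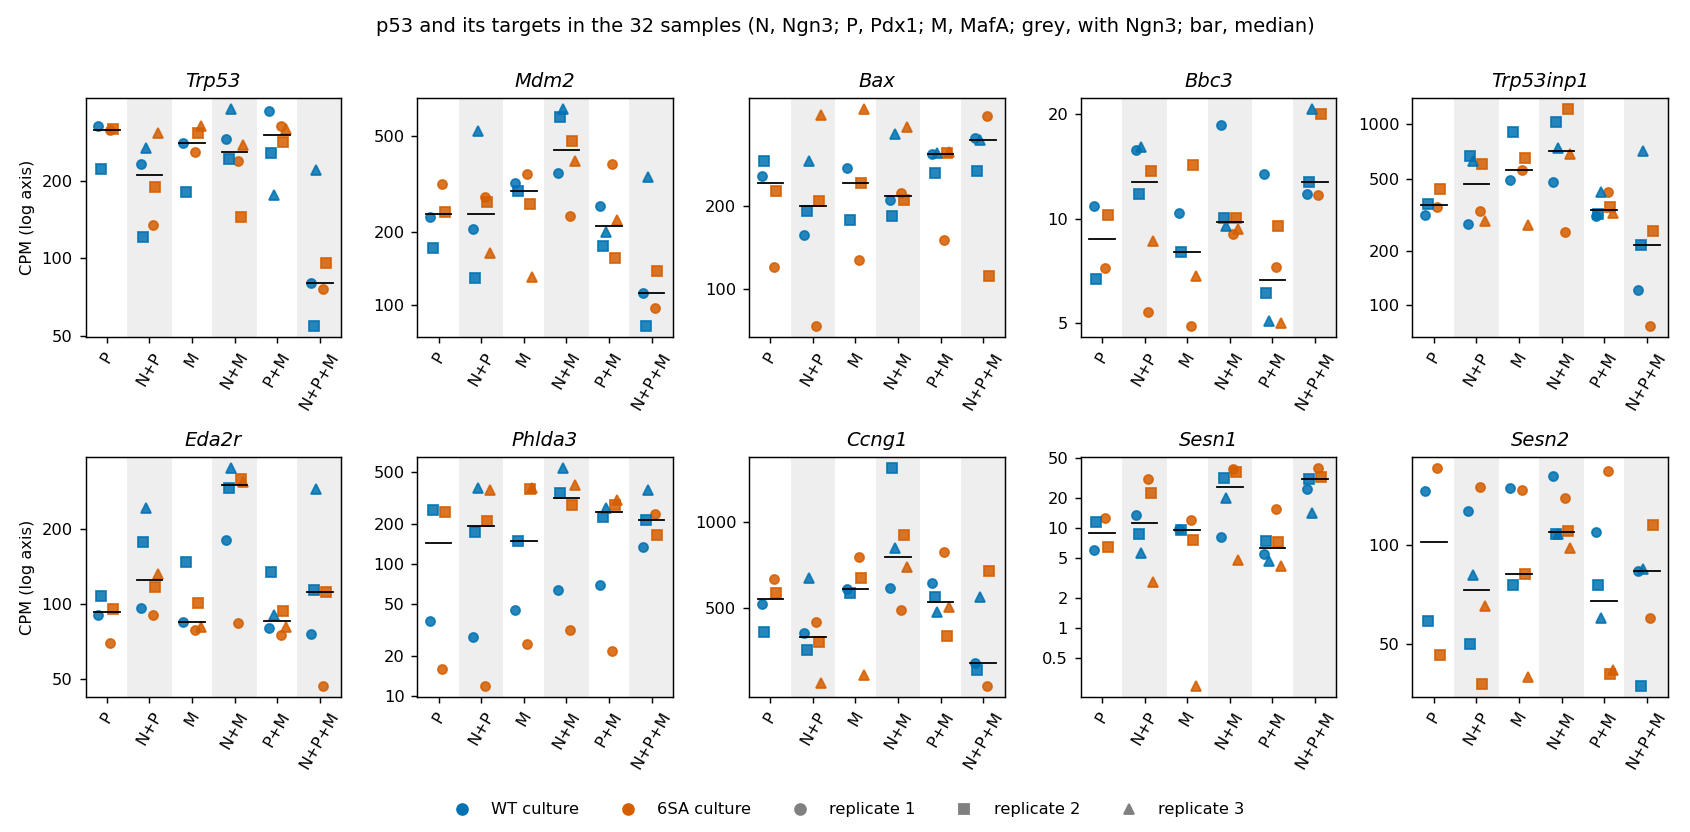
Levels of p53 and its targets in each of the 32 samples, in CPM on log axes. Columns are the sorted combinations (grey, with Ngn3), colours the cultures, symbols the replicates and bars the medians. Trp53 in the 3-factor cells lay at 54.6 to 95.6 CPM in 4 of 5 samples, and Phlda3 split by replicate number, with replicate 1 at 11.9 to 69.7 CPM outside the 3-factor cells.

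The question of the first comparison was how the 10 genes differed between cells with and without Ngn3, averaged over the backgrounds of Pdx1, MafA and both. Trp53 was lower with Ngn3, and Sesn1 and Eda2r were higher. These 3 of 10 members passed the test of one edgeR quasi-likelihood model over all genes, beside 21.5% of all genes tested, so the share of members was near that of the background. The median log2 fold change of the 10 members was 0.059, beside 0.072 for all genes.

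Trp53 (chr11:69580359-69591873 of GRCm38) ran from 54.6 CPM over a median of 219 to 380 CPM in the 17 samples with Ngn3, and from 176 over 305 to 372 CPM in the 15 without. The ranges overlapped, but 7 of the 17 samples with Ngn3 were below every sample without it. The level was 1.60-fold lower with Ngn3 (log2 fold change −0.67, SE 0.18, edgeR adjusted p = 0.00822). Mdm2, which encodes the ligase that degrades p53, ran from 81.8 over 267 to 647 CPM with Ngn3 and from 130 over 242 to 384 CPM without. Its samples with Ngn3 lay on both sides, 5 above and 4 below every sample without, and the log2 difference of 0.046 (SE 0.22) did not pass.

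Among the genes of cell death and stress signalling, Eda2r, which encodes a receptor of the tumour necrosis factor family (chrX:97333840-97377216), ran from 46.8 over 133 to 353 CPM with Ngn3 and from 69.8 over 90.5 to 148 CPM without. Of the 17 samples with Ngn3, 8 were above and 1 was below every sample without it, and the level was 1.69-fold higher (log2 fold change 0.76, SE 0.21, edgeR adjusted p = 0.00925). Bbc3, the gene for the death activator Puma, was low throughout, at 5.39 to 20.7 CPM with a median of 11.7 with Ngn3 and 4.90 to 14.3 CPM with a median of 7.24 without. Its log2 difference of 0.56 (SE 0.24) did not pass the test (edgeR adjusted p = 0.0971), although it did with DESeq2 and with RLE size factors. Bax, which opens the mitochondrial outer membrane in apoptosis, had medians of 222 CPM with and 261 CPM without Ngn3 and ranges that overlapped almost fully. Trp53inp1, which promotes p53 activity and autophagy, spread from 76.8 to 1216 CPM with Ngn3 and from 279 to 901 CPM without. Neither passed, with log2 differences of 0.071 (SE 0.23) for Bax and 0.029 (SE 0.25) for Trp53inp1. Phlda3, which encodes an inhibitor of the kinase Akt, had the widest standard error, 0.50 on a log2 difference of 0.48 (edgeR adjusted p = 0.661). That difference was 0.21 without replicate 1, 1.66 without replicate 2 and 0.17 without replicate 3, and it did not pass in any of these fits.

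Among the genes of cell cycle and oxidative stress, Sesn1, which encodes a sestrin that restrains the growth kinase mTORC1 (chr10:41809935-41908424), ran from 2.86 over 22.4 to 39.6 CPM with Ngn3 and from 0.264 over 7.32 to 15.5 CPM without. Of the 17 samples with Ngn3, 10 were above every sample without it, and none was below all of them. The level was 2.54-fold higher (log2 fold change 1.35, SE 0.37, edgeR adjusted p = 0.00922). The gene was thinly counted, with 1 to 674 counts per sample, and the lowest sample, 6SA MafA replicate 3, held 1 count, under the 3 counts taken as detected. Sesn2, a second sestrin gene, had medians of 97.8 CPM with and 75.6 CPM without Ngn3 and a log2 difference of −0.045 (SE 0.26). Ccng1, which encodes cyclin G1, had medians of 494 and 563 CPM and a log2 difference of −0.059 (SE 0.18), and neither passed.

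The 3 calls did not all hold when replicates were left out. Without replicate 2, none of the 3 passed, and the count of members was 0. Without replicate 1, Trp53 did not pass (log2 fold change −0.42), and without replicate 3, Eda2r did not (0.48). The directions of these 3 genes stayed the same in each of these fits.

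**Figure D2:**
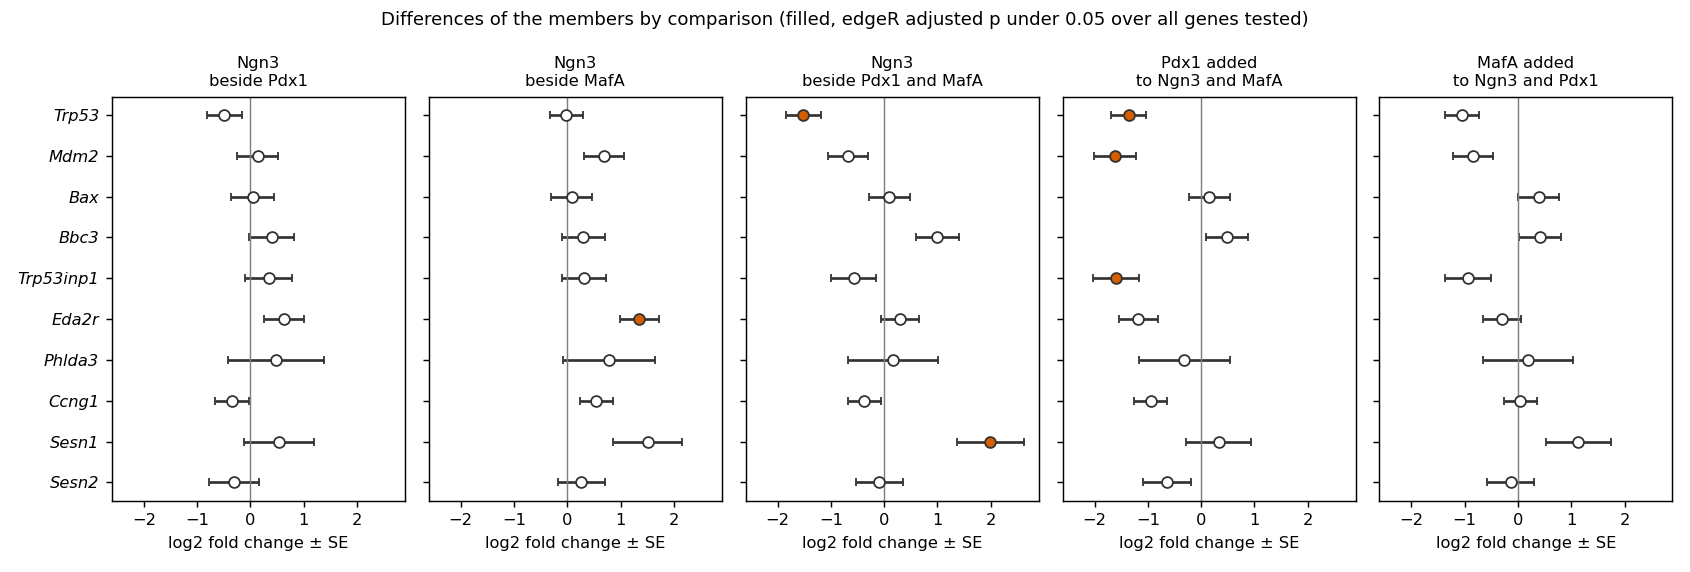
Log2 fold changes of the 10 members with standard errors from the edgeR model, one panel per comparison. Filled points passed the test over all genes. Trp53 was lower in the 3-factor cells than in those with Pdx1 and MafA (−1.52) and than in those sorted for Ngn3 and MafA (−1.36), and Eda2r was higher with Ngn3 beside MafA (1.35).

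The effect of Ngn3 was next taken in each background. Beside Pdx1, none of the 10 members passed in edgeR, where 1.49% of all genes did. The number with an unadjusted p under 0.05 was also 0, and DESeq2 called 0. The members with the lowest p were Eda2r (log2 difference 0.63, SE 0.38) and Trp53 (−0.49, SE 0.33), and the other 8 lay between −0.35 (Ccng1) and 0.54 (Sesn1).

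Beside MafA, 1 member passed, Eda2r, where 4.67% of all genes did. Its levels with Ngn3 and MafA were 182, 294 and 353 CPM in the WT samples and 83.6, 319 and 311 CPM in the 6SA samples. With MafA alone they were 84.7 and 148 CPM in WT and 78.2, 101 and 80.7 CPM in 6SA. So 5 of the 6 samples with Ngn3 were above all 5 without, and 6SA replicate 1 lay inside the range of the 5. The level was 2.56-fold higher with Ngn3 (log2 fold change 1.35, SE 0.37, edgeR adjusted p = 0.0288). Mdm2 was above all samples without Ngn3 in 5 of 6 samples as well, at a log2 difference of 0.68 (SE 0.38) that did not pass. Same-numbered samples of these groups deviated together, and in a fit that took replicate numbers as a block 2 members passed, Eda2r and Sesn1, where 8.84% of all genes did. Sesn1 had a log2 fold change of 1.88 (SE 0.53) with the block and 1.51 (SE 0.64) without it. The other 7 members lay between −0.016 (Trp53) and 0.79 (Phlda3) without the block. The count was 0 without replicate 2 and 0 without replicate 3.

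Beside Pdx1 and MafA, 2 members passed, where 17.8% of all genes did, Trp53 lower and Sesn1 higher. Trp53 in the 3-factor cells was at 80.3, 54.6 and 219 CPM in WT replicates 1, 2 and 3 and at 75.8 and 95.6 CPM in 6SA replicates 1 and 2. With Pdx1 and MafA it ran from 176 to 372 CPM in 6 samples. Of the 5 samples of 3-factor cells 4 were below all 6, and WT replicate 3, the one sample at passage 5, lay inside their range. The level was 2.86-fold lower (log2 fold change −1.52, SE 0.33, edgeR adjusted p = 0.00173). Sesn1 was at 24.8, 31.0 and 14.1 CPM in the WT and at 39.6 and 32.03 CPM in the 6SA samples of 3-factor cells, against 4.14 to 15.5 CPM in the 6 samples with Pdx1 and MafA. It was 3.98-fold higher (log2 fold change 1.99, SE 0.62, edgeR adjusted p = 0.0259), with 4 of 5 samples above all 6. Bbc3 had a log2 difference of 1.00 (SE 0.40, edgeR adjusted p = 0.0825) and did not pass, although it did with DESeq2, RLE size factors and filterByExpr. The other 7 members lay between −0.68 (Mdm2) and 0.30 (Eda2r). The count was 0 without replicate 2, and 1 without replicate 1, where Sesn1 passed and Trp53 did not (log2 fold change −1.11). Without replicate 3 in all groups, Mdm2 also passed, lower (log2 fold change −1.21, edgeR adjusted p = 0.0192). Without WT replicate 3 of the 3-factor cells, a refit chosen after seeing the data, Mdm2 passed as well, lower at −1.12, and the count was 3.

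WT replicate 3 of the 3-factor cells also lay outside the other 4 samples in further members. It held 339 CPM of Mdm2 where the other 4 samples held 81.8 to 139 CPM. For Trp53inp1 it held 711 CPM against 76.8 to 258 CPM, and for Eda2r 291 CPM against 46.8 to 113 CPM. Neurog3 in this sample was at 14.6 CPM, the lowest of the 5. Its endocrine markers summed to at most 1537 CPM, where the median of the 5 was 5849 CPM. Its duct markers summed to at least 6007 CPM, where the median of the 5 was 3967 and the highest 6161 CPM. The part of passage, of the Neurog3 level and of these marker levels in the values of the members was not tested.

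A test of whether the effect of Ngn3 differed among the 3 backgrounds was passed by none of the members and by 0.0333% of all genes (8 genes). One member, Trp53, had an unadjusted p under 0.05 (0.00835, edgeR adjusted p = 0.425), and DESeq2 called 0. In the refit without WT replicate 3 of the 3-factor cells, Trp53 was the 1 member that passed this test. A test for any difference among the 12 conditions was also passed by 0 of the 10 members in edgeR, where 7.2% of all genes did. The lowest adjusted p was that of Eda2r (0.0621), 2 members had an unadjusted p under 0.05, and DESeq2 called 2, Eda2r and Trp53.

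To see what each partner factor added, the 3-factor cells were compared with cells holding 2 of the factors. Adding Pdx1 to Ngn3 and MafA went with lower levels of Trp53, Mdm2 and Trp53inp1. These 3 of 10 members passed, all lower, where 2.72% of all genes did. Trp53 was 2.57-fold lower (log2 fold change −1.36, SE 0.33, edgeR adjusted p = 0.0236), from 145 to 380 CPM in the 6 samples with Ngn3 and MafA to the values above. Mdm2 was 3.06-fold lower (−1.61, SE 0.39, edgeR adjusted p = 0.0245), from 351, 599 and 647 CPM in WT and 233, 478 and 394 CPM in 6SA to 112, 81.8 and 339 CPM in WT and 97.1 and 139 CPM in 6SA. All but WT replicate 3 of the 3-factor samples were below all 6. Trp53inp1 was 3.03-fold lower (−1.60, SE 0.44, edgeR adjusted p = 0.0456), from 252 to 1216 CPM to 76.8 to 711 CPM, with ranges that overlapped. Eda2r (log2 difference −1.18, SE 0.37, edgeR adjusted p = 0.0721) and Ccng1 (−0.95, SE 0.32, edgeR adjusted p = 0.0962) did not pass, nor did the other 5 members, which lay between −0.64 (Sesn2) and 0.49 (Bbc3). The median log2 fold change of the 10 members was −0.79, beside 0.033 for all genes. The duct markers summed to 2789 to 6161 CPM in the 3-factor cells and to 5695 to 11690 CPM with Ngn3 and MafA. The endocrine markers overlapped more widely, at 1102 to 9095 against 449 to 13444 CPM. The part of these marker levels in the values of the members was not tested.

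Same-numbered samples of this comparison also deviated together. When replicate numbers were taken as a block 5 members passed, all lower, Trp53, Mdm2, Trp53inp1, Eda2r and Ccng1, where 8.49% of all genes did. The count was 0 without replicate 2, where none of all genes passed either, and 1 (Mdm2) without replicate 1, where 708 genes did. Without WT replicate 3 of the 3-factor cells, chosen after seeing the data, the count was 5, where 1619 genes passed. With the first repeat only, Trp53 and Trp53inp1 did not pass (edgeR adjusted p = 0.0563 and 0.0535). Nor did they with only the conditions compared (edgeR adjusted p = 0.0573 and 0.0993).

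Adding MafA to Ngn3 and Pdx1 gave no member past the threshold in edgeR, where 1.88% of all genes passed. Trp53 had a log2 difference of −1.05 (SE 0.32, edgeR adjusted p = 0.0948), from 121 to 304 CPM in the 6 samples with Ngn3 and Pdx1. An unadjusted p under 0.05 was reached by 3 members (Trp53, Mdm2 and Trp53inp1, all with negative differences), and DESeq2 called 1, Trp53. The other 7 members lay between −0.31 (Eda2r) and 1.13 (Sesn1). Without replicate 3 in all groups Trp53 passed (log2 fold change −1.21, edgeR adjusted p = 0.0359). Without WT replicate 3 of the 3-factor cells, chosen after seeing the data, Trp53, Mdm2 and Trp53inp1 passed, where 1072 of 24004 genes did.

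The study asked what the phospho-mutant form of Ngn3 changes. Between 6SA and WT Ngn3, over the 3 combinations with Ngn3, none of the members passed, as did 0% of all genes in edgeR. Over all genes, 1421 had an unadjusted p under 0.05, and DESeq2 called 19 genes and none of the members. The largest difference among the members was that of Sesn1 (log2 difference 0.68, SE 0.49), and the lowest p that of Eda2r (−0.61, SE 0.29, unadjusted p = 0.0426, edgeR adjusted p = 0.821), whose median was 115 CPM in 8 samples with 6SA Ngn3 and 182 CPM in 9 with WT Ngn3. Trp53 had medians of 167 and 233 CPM (log2 difference −0.31, SE 0.25). For Bax the difference was −0.0058 (SE 0.31), the other 6 members lay between −0.49 (Trp53inp1) and 0.068 (Sesn2), and for the 10 members the median was −0.26 beside 0.078 for all genes.

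In the cells without Ngn3 of the same cultures, the difference between 6SA and WT cultures passed for none of the members and for 0% of all genes, with 591 genes at an unadjusted p under 0.05, none of them a member, and 8 genes called by DESeq2. The members lay between −0.33 (Eda2r) and 0.46 (Phlda3) on the log2 scale. The interaction, whether the effect of Ngn3 differed between its 2 forms, likewise gave no member and 0% of all genes in edgeR, with 647 genes at an unadjusted p under 0.05 and 5 called by DESeq2, no member among either. Its values among the members ran from −0.66 (Phlda3, SE 1.00) to 0.60 (Sesn1, SE 0.73), and the standard errors of 0.36 to 1.00 leave room for differences of that size. Within WT cultures the effect of Ngn3 passed for 0 of 10 members and 2062 of 24004 genes. Within 6SA cultures it passed for 2 members and 3384 genes. These were Trp53 (log2 fold change −0.96, in WT −0.39) and Sesn1 (1.64, in WT 1.05). Eda2r passed in neither (0.90 in WT and 0.62 in 6SA).

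The members differed in how much of their spread lay between replicates. Among repeat pools of one replicate, the SD of log2(CPM + 1) was 0.37 (Eda2r) to 0.97 (Sesn1), and among replicates of one condition it was 0.48 (Bbc3) to 1.85 (Phlda3). Phlda3 had an SD of 0.56 between pools and 1.85 between replicates. Outside the 3-factor cells it was at 11.9 to 69.7 CPM in the 10 samples of replicate 1 and at 150 to 531 CPM in the 17 samples of replicates 2 and 3, so these ranges did not overlap. The 3-factor cells of replicate 1 held 135 CPM (WT) and 240 CPM (6SA), above all other samples of that replicate. In single pools of 50 cells these sets overlapped slightly, as 27 pools of replicate 1 from the other conditions were at 8.70 to 76.2 CPM of the library total and the 6 pools of 3-factor cells were at 64.2 to 368 CPM.

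**Figure D3:**
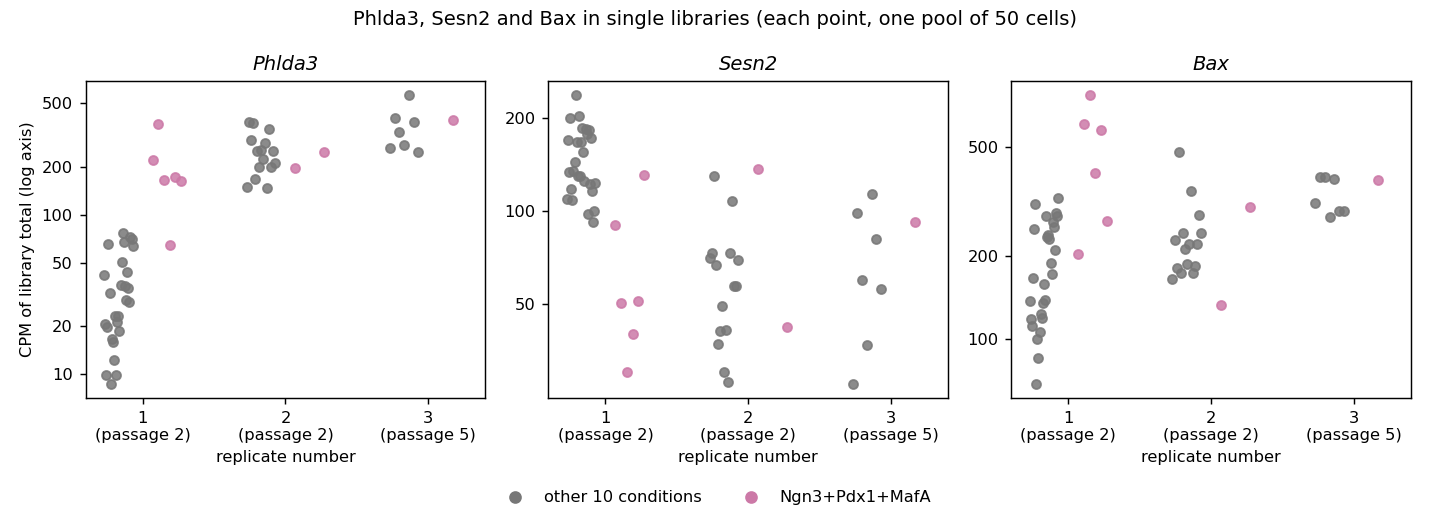
Phlda3, Sesn2 and Bax in single libraries, each point a pool of 50 cells, in CPM of the library total on log axes, by replicate number (grey, the conditions other than 3-factor; pink, 3-factor cells). Among the libraries kept, pools of replicate 1 held 8.70 to 76.2 CPM of Phlda3 outside the 3-factor cells. Kept pools of replicates 2 and 3 held 146 CPM or more in every condition. The 3 libraries left out, all 3-factor pools of replicates 2 and 3, held 82.8, 135 and 105 CPM.

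Sesn2 and Bax also differed by replicate number. Outside the 3-factor cells Sesn2 was at 109 to 171 CPM in replicate 1 and at 37.7 to 110 CPM in replicates 2 and 3, ranges that met at their ends, in an order opposite to that of Phlda3. In the pools of 3-factor cells of replicate 1, Sesn2 was at 30.2 to 131 CPM of the library total. Bax was at 73.8 to 305 CPM in replicate 1 and at 178 to 446 CPM in replicates 2 and 3, again outside the 3-factor cells and with overlap. These splits were seen in the values and were not tested, and what set replicate 1 apart is not given in the labels.

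Passage 5 was compared with passage 2 in a model with a passage term beside the 12 conditions. Passage 5 is replicate 3, so the passage and that culture cannot be told apart. In edgeR, 2 members passed, where 8.23% of all genes did. Bax was 1.72-fold higher at passage 5 (log2 fold change 0.78, SE 0.22, edgeR adjusted p = 0.0311), at 289 to 446 CPM in 8 samples against 73.8 to 420 CPM in 24. Sesn1 was 2.86-fold lower (−1.52, SE 0.40, edgeR adjusted p = 0.0209), at 0.264 to 19.96 CPM against 5.51 to 39.6 CPM. Phlda3 was at 263 to 531 CPM at passage 5 and 11.9 to 371 CPM at passage 2 and did not pass (1.28, SE 0.53, edgeR adjusted p = 0.123), nor did the other 7 members, which lay between −0.49 (Sesn2) and 0.51 (Trp53). The median of the members was 0.23 and that of all genes −0.26. Of the 12 proliferation genes 2 passed, both lower, with a median log2 fold change of −1.44. The endocrine markers summed to at most 1537 CPM at passage 5 and at most 13444 CPM at passage 2. The part of these changes in the values of the members was not tested. Without replicate 2, replicate 1 gives the only passage 2 samples, and 5 members passed, with Phlda3, Sesn2 and Eda2r beside Bax and Sesn1. In that fit 5025 of all 24004 genes passed, against 1975 with all samples. Without replicate 1 Sesn1 was the 1 member that passed (Bax had a log2 difference of 0.59), where 965 of all genes did.

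Other genes of the pathway were taken as lists by name, and the effect of Ngn3 over all backgrounds is given for each. Of 28 other p53 targets 27 were tested, and 5 rose and 4 fell, where 21.5% of all genes passed, with a median log2 fold change of −0.082 beside 0.072 for all genes. The count of 9 ran from 6 to 11 with samples left out. Cdkn1a, whose product p21 blocks the cyclin-dependent kinases, ran from 542 over 1072 to 1696 CPM with Ngn3 and from 361 over 466.1 to 1016 CPM without, and was 2.10-fold higher (edgeR adjusted p = 4.41e-05). The others that rose were Plk3, a stress kinase gene (log2 fold change 0.86), the apoptosis gene Ei24 (0.80), the RNA-binding protein gene Zmat3 (0.64) and Gadd45a, a growth arrest and DNA damage gene (0.64). The call of Gadd45a held in 7 and that of Plk3 in 8 of 12 alternatives, and both were lost without replicate 1 and without replicate 2. Dram1, a gene of autophagy, ran from 1.17 over 33.5 to 130 CPM with Ngn3 and from 132 over 322 to 461 CPM without, ranges that did not overlap, and was 13.7-fold lower (log2 fold change −3.77, SE 0.28, edgeR adjusted p = 1.29e-10). Sfn, which encodes 14-3-3σ (−1.85), the kinase gene Plk2 (−1.30) and the death gene Pmaip1 (−1.29) also fell. So the targets that passed moved in both directions. Exons of Cdkn1a, Gadd45a, Plk3 and Ei24 overlap a gene on the other strand over 3.32% to 19.1% of their bases, and since the use of strand in counting is not known, reads there are uncertain.

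Of 15 p53 regulators and family genes 14 were tested. The checkpoint kinase genes Chek2 (log2 fold change −2.24, SE 0.43) and Chek1 (−1.71, SE 0.57) fell, and all 12 proliferation genes fell with them, with a median of −3.15. Trp73, a relative of p53, was called higher, but it was at 0 in 14 of 15 samples without Ngn3 and in 8 of 17 with it, and its highest sample held 53.8 CPM, so no fold is given. The call was lost without WT Ngn3+MafA replicate 1, without replicate 1 in all groups, with DESeq2 and with the first repeat only. Of 18 genes of the BCL2 family and caspases 3 rose and 3 fell, where 21.5% of all genes passed. The death activator Bik (1.51, SE 0.27) and the survival gene Bcl2l2 (0.84, SE 0.20) rose, as did Hrk, which was at 0 in 11 of 15 samples without Ngn3 and reached 4.83 CPM with it. Casp8, the caspase of death receptors (−0.90, SE 0.18), and the survival genes Bcl2l1 (−0.62, SE 0.21) and Bcl2 (−0.57, SE 0.20) fell. The call of Bcl2 held in 5 of 12 alternatives and was lost without each of replicates 1, 2 and 3. Bcl2l1 was at 0.020 without replicate 1, and the count of called genes was 3 of 18 in that fit and 2 of 18 without replicate 2.

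**Figure D4:**
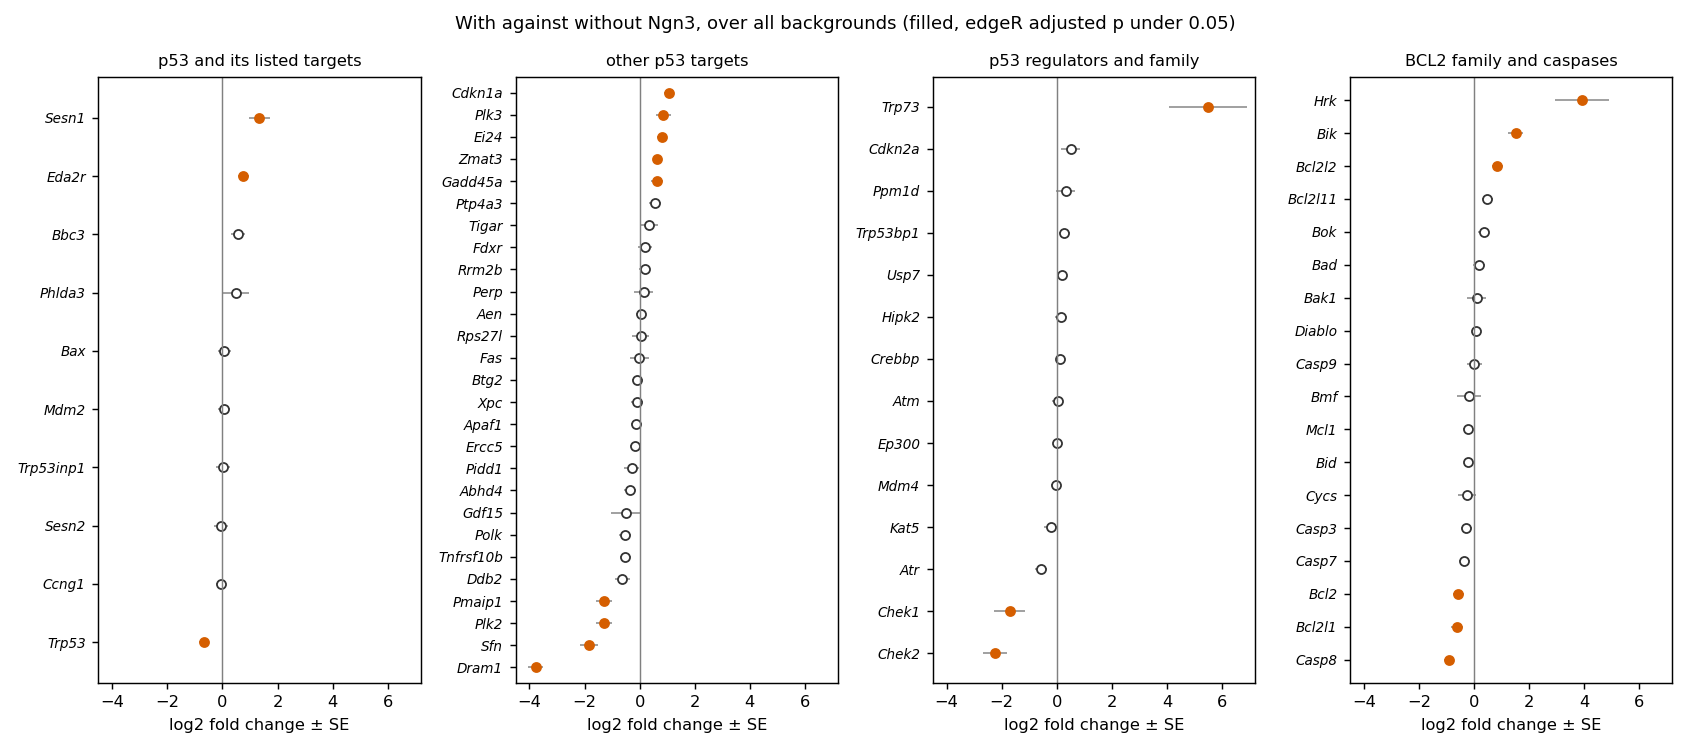
Log2 fold changes with against without Ngn3, over all backgrounds, for the 10 members, 27 other p53 targets, 14 regulators and family genes and 18 genes of the BCL2 family and caspases, with standard errors. Filled points passed the edgeR test over all genes. Trp73 and Hrk were at or near 0 counts without Ngn3, so their fitted folds are no measure of size.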

How the data were processed

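RNA was measured in 61 libraries of 50 sorted cells (12 conditions). Per the labels and methods, the authors mapped 50-base reads to mm10 using GSNAP, counted them on Ensembl genes using HTSeq (0.5.3p3, from the submitters' processing notes) and deposited raw counts per gene and library. Use of strand is not given in the sources used here. Rows naming no gene took 33.9% to 67.3% of counts per library and were left out, as were 92 spike-in sequences. The quality limits of the methods (under 25% spike-in counts, over 1000000 gene counts, over 10000 genes) left 58 libraries. They removed 3, fewer than the methods say were left out, so the samples used may differ from those of the study, and repeat libraries were summed into 32 samples. In a sample 3 counts, the smallest amount taken as detected, equal 0.136 to 1.01 CPM, which covers counting error only. The test took genes with a count in 5 or more libraries whose log2(CPM + 1) varied by more than 0.001 (variance).

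From these counts, edgeR 4.0.16 in R 4.3.3 (TMM, quasi-likelihood) fitted one mean per condition, or with a passage term, and p-values were Benjamini-Hochberg adjusted over all genes tested, with calls under 0.05. Group membership is from the labels. The fits were tested on simulated data. The alternatives were DESeq2 1.42.0, RLE size factors, filterByExpr, no gene filter, all libraries, the first repeat only, each replicate left out, a replicate block and only the conditions compared. Leaving out WT Ngn3+MafA replicate 1 or WT Ngn3+Pdx1+MafA replicate 3 was added after seeing the data. Replicate numbers are from the labels. They paired the samples where every same-numbered pair deviated together (correlation over 0.1). This held for 4 of 4 pairs beside Pdx1 and 5 of 5 beside MafA. It also held for 5 of 5 where Pdx1 was added and 7 of 7 between cultures without Ngn3. Where 2 groups shared only 2 replicate numbers, both pairs gave the same correlation and are not separate evidence. This applied to all pairs beside Pdx1 (0.708 in WT and 0.780 in 6SA) and to some pairs in each of the other comparisons.

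By rule all 10 members were taken in every comparison, those not named singly as a range, with Neurog3, Pdx1 and Mafa, and of the other lists the genes called for Ngn3 over all backgrounds. Marker lists are given as sums. The members and lists were chosen with earlier results of these data known. Symbols were matched for 45143 of 46078 genes.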

Additional observations from a re-analysis of the deposited data

Results flagged for a closer look

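Of the libraries left out for low totals, 2 held a member above every library with Pdx1 and MafA of the same culture. Eda2r was at 149 CPM of the library total in 6SA Ngn3+Pdx1+MafA replicate 3 (61 of 408733 counts, exact 95% interval 114 to 192), where the highest of 6 libraries with Pdx1 and MafA held 117 CPM. Sesn1 was at 28.8 CPM in the first repeat of WT Ngn3+Pdx1+MafA replicate 2 (18 of 625650 counts, exact 95% interval 17.1 to 45.5), where the highest of 5 held 8.31 CPM. Other members of the same libraries lay below every library with Pdx1 and MafA. Trp53 did so in all 3 libraries left out, at 62.1 and 115 CPM in the 6SA libraries, where the lowest of 6 held 219 CPM, and at 52.7 CPM in the WT library, where the lowest of 5 held 165 CPM. Eda2r, high in the library of 6SA replicate 3, was low in that of WT replicate 2, at 31.97 CPM where the lowest of 5 held 71.96 CPM. Mdm2 and Ccng1 in the WT library, and Trp53inp1 in the WT library and that of 6SA replicate 2, were also below. The intervals cover counting error only.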

How the results depend on the processing

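Of the refits of the 12 counts of members, 120 stayed within 1.5 times the reported count and 29 did not. For any difference between conditions the reported 0 became 2 with DESeq2, 5 with no gene filter, 1 with RLE size factors and 3 with the replicate block. For MafA added it went from 0 to 1 with DESeq2, 1 with no gene filter and 2 with the block (Trp53 at −0.98, and Phlda3 at 1.60 where it was 0.18 without the block). Beside Pdx1 and MafA the block also gave a call of Phlda3 (1.26, and 0.17 without it), and in both comparisons replicate numbers did not pair the samples. For Pdx1 added it went from 3 to 5 with DESeq2, 5 with no gene filter, 5 with the block, 1 with the first repeat only and 1 with only the conditions compared, and beside MafA from 1 to 2 with the block. Genes called over all genes changed as well. For any difference they went from 1729 of 24004 to 3115 with DESeq2 and 1798 with RLE. They were 3211 with the block and 4446 of 31181 with no gene filter. For MafA added they went from 451 to 1115 with DESeq2, 1454 with no filter and 1188 with the block. For Pdx1 added they went from 654 to 1608, 1930 and 2038 in these fits. With the first repeat only they were 321, and with only the conditions compared 531. The block moved no other count of members by over 1.5 times. With samples left out, the counts ran from 0 to 2 (any difference), 0 to 3 (Ngn3 over all backgrounds), 0 to 1 (beside MafA), 0 to 3 (beside Pdx1 and MafA), 0 to 3 (MafA added), 0 to 5 (Pdx1 added), 0 to 1 (effect by background) and 1 to 5 (passage), and stayed at 0 beside Pdx1 and in the comparisons of 6SA with WT. These fits hold fewer samples, some counts fell and others rose, and the cause was not tested.

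Directions over all backgrounds turned for members that were not called. Mdm2 (0.046) was at −0.010 with the block and at −0.29 to 0.47 with samples left out. Bax (0.071) was at −0.073 with the first repeat only, −0.042 with the block and −0.10 to 0.34 with samples left out. Ccng1 (−0.059) was at 0.024 with DESeq2 and RLE, 0.0038 with the first repeat only and −0.32 to 0.30 with samples left out. Sesn2 (−0.045) was at 0.043 with DESeq2, 0.042 with RLE, 0.13 with the block and −0.30 to 0.51 with samples left out. Trp53inp1 (0.029) was at −0.11 with the block and −0.21 to 0.33 with samples left out, and Bcl2l1 (−0.62) at −0.98 to 0.020. The calls of the BCL2 family ran from 2 to 6. RLE moved the median of all genes beside Pdx1 and MafA from 0.049 to 0.17. Low counts limit Sesn1 and Bbc3, and 2 or 3 samples per condition limit every difference.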

Other observations

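Where Pdx1 was added to Ngn3 and MafA, 7 of 27 other p53 targets fell, 0 rose and 20 did not pass, beside 2.72% of all genes that passed (374 of 24004 lower), with a median log2 fold change of −0.22 beside 0.033 for all genes. The 7 were Plk2 (−2.01), Dram1 (−1.74), Abhd4 (−1.51), Polk, a translesion DNA polymerase gene (−1.46), Ercc5, a nuclease of excision repair (−1.44), Tnfrsf10b, a death receptor gene (−1.40), and Apaf1, the scaffold of the apoptosome (−1.37). Of 18 genes of the BCL2 family and caspases 2 fell and 16 did not pass. The 2 were Casp8 (−2.16, SE 0.34) and Bid (−1.56, SE 0.29), and 17.7% of the exon bases of Bid overlap a gene on the other strand. Without replicate 2 no gene of all tested passed in this comparison. Of 27 other p53 targets 3 passed at passage 5, all higher, beside 8.23% of all genes. Of the 18 genes of the BCL2 family and caspases 2 passed there, both lower. At passage 5 the stress cytokine gene Gdf15 was 5.02-fold higher (log2 fold change 2.33, SE 0.46), Rps27l 2.00-fold and Tnfrsf10b 1.58-fold higher, while Bok (−0.91) and Bmf (−1.63) were lower. These genes were named after their values were seen, and all passed the edgeR test over all genes.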
